A study of Mus musculus with 24 samples.

Results

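CHOP-/- and wild type mouse embryonic fibroblasts were compared after 8 h of tunicamycin, the longest treatment of the study. The comparison used the 4 arrays titled CHOP-/- and the 4 titled wild type at 8 h, lettered A to D in each genotype, out of 24 arrays in all. The other 16 arrays held both genotypes untreated and after 4 h, again 4 arrays per group, and were used for the shared estimate of spread and to set the 8 h difference beside the earlier ones. The labels describe the cells as primary fibroblasts, give total RNA as the material and give 2 µg/ml as the dose of tunicamycin. The strain, the embryos and the CHOP-/- allele are not named in them. Whether each array had its own culture is not stated either, and the p-values may thus reflect technical spread alone. Both genotypes at 8 h had received the drug, and no group with solvent alone was analysed here.

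Tunicamycin stops the attachment of N-linked sugars, and unfolded proteins then build up in the endoplasmic reticulum (ER). Cells answer through the unfolded protein response, whose IRE1 and ATF6 arms raise chaperones and the degradation machinery, and whose PERK arm slows translation and raises the transcription factor ATF4. CHOP, encoded by Ddit3, is a C/EBP family transcription factor induced late in the PERK arm and known for its part in cell death and in restoring protein synthesis during lasting stress.

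The values were probe set signals, a linear brightness scaled by the authors to a common level on every array. Each gene was read from its brightest probe set, and differences are given as log2 of CHOP-/- over wild type on the log2(signal + 5.7) scale, which understates the change of dim genes. A gene was tested when its mean over all 24 arrays exceeded a signal of 28.6, which left 5662 of 8251 genes. It was called when the Benjamini-Hochberg adjusted p of limma was under 0.05. Adjusted p values below are from that fit unless another test is named.

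Ddit3 itself separated the genotypes. Its signal was 7.1, 39.0, 24.5 and 11.4 in CHOP-/- arrays A to D, against 3857, 4782.1, 4009.9 and 4883 in wild type arrays A to D. All CHOP-/- arrays lay far below every wild type array, and 3 of the 4 lay under the signal that the filter used. The fitted log2 difference was −7.48 (SE 0.35, adjusted p = 5.31e-13), and with dim arrays set to the filter's signal the CHOP-/- cells were at least 119-fold lower. The exact two-sided permutation p was 0.0286, the smallest that 4 arrays against 4 can give, and an exact sign-flip test over the 4 letter pairs gave 0.125, also the smallest it allows. Whether the probe set lies in the deleted part of Ddit3 is not known from the files.

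The cells carried fibroblast transcripts in both genotypes, and 2 arrays stood apart in leukocyte genes. The summed signal of 14 fibroblast markers was 21369.9 to 31454.3 in CHOP-/- arrays and 19987.9 to 28188.9 in wild type arrays. The collagen gene Col1a1, a fibroblast marker, gave 6832.9 to 10599.0 in CHOP-/- arrays and 6030.3 to 9229.7 in wild type arrays. The marker Vim lay under the filter's signal on 7 of the 8 arrays. Of the others, S100a4 was called lower in CHOP-/- cells (−0.77) and Pdgfrb higher (0.755). The summed signal of 54 leukocyte markers was 3430.1, 3729.0, 2081.3 and 2158.4 in CHOP-/- arrays A to D, against 6937.5, 9864.7, 2689.2 and 3083.2 in wild type arrays A to D. Wild type A and B were therefore the high arrays, and in both genotypes A and B exceeded C and D. The median signal over all probe sets was 55.2 to 62.5 on CHOP-/- arrays and 51.8 to 61.3 on wild type arrays.

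The leukocyte pattern in wild type A and B ran through most of the list. In 42 of the 54 genes both arrays lay above wild type C and D, and in 37 they lay above all of the other 6 arrays at 8 h. Over all genes tested, which exclude 30 of the 54 as too dim, the same was true of 955 and 246 of 5662. Among the 14 fibroblast markers it was true of 7 and 1, so the difference from wild type C and D was not confined to leukocyte genes. Lyz2, which encodes lysozyme of macrophages, gave 114.0, 197.4, 32.7 and 33.5 in CHOP-/- arrays A to D and 633.5, 1332.0, 88.7 and 76.7 in wild type arrays A to D. Csf1r, the receptor for a macrophage growth factor, gave 35.5 to 118.8 in CHOP-/- arrays, against 326.7, 442.0, 42.5 and 41.9 in wild type arrays A to D. Ptprc, which encodes the common leukocyte antigen CD45, did not pass 25.4 on any array at 8 h and thus lay under the filter's signal on all 8. The same letters were high in the other wild type groups, with sums of 8828.7 and 12189.2 in A and B against 3056.9 and 3999.9 in C and D untreated, and 7596.4 and 11279.0 against 3189.4 and 3598.2 at 4 h.

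**Figure D1:**
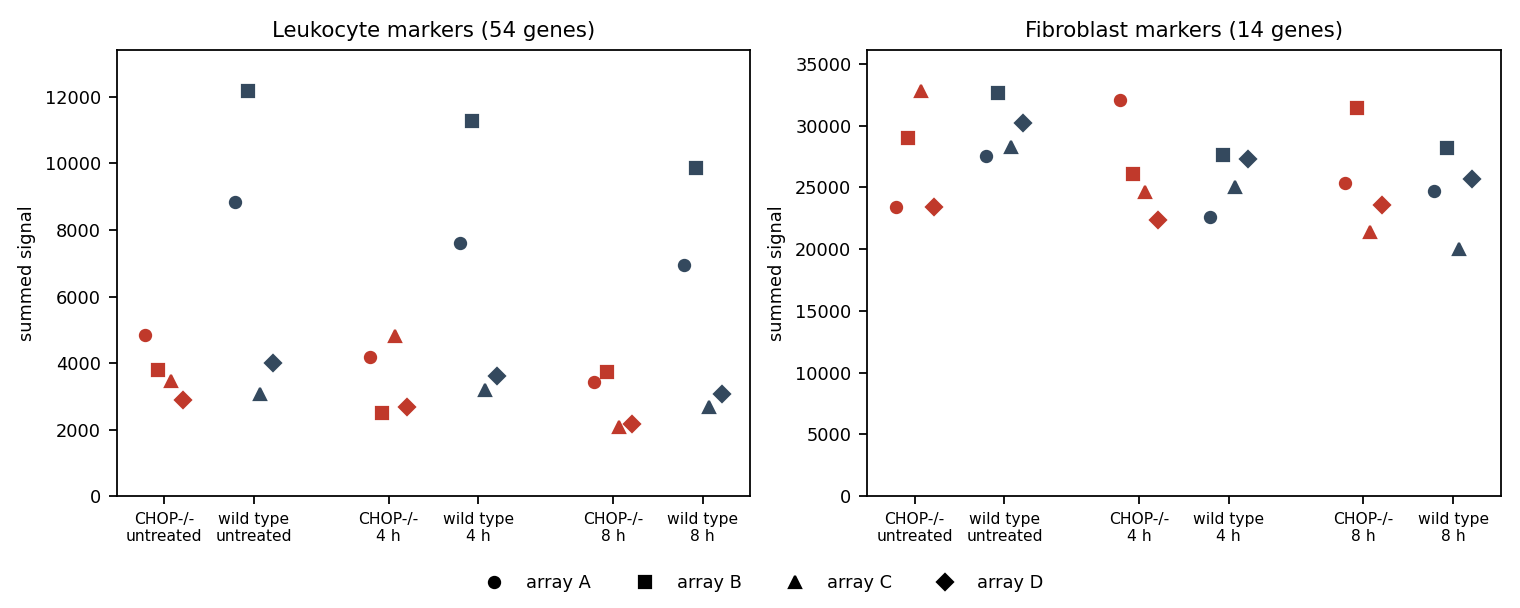
Summed probe set signal of 54 leukocyte markers (left) and 14 fibroblast markers (right) on each of the 24 arrays, with CHOP-/- left of wild type at each time and the letter of the array as the symbol. Wild type arrays A and B hold the highest leukocyte sums at every time, 6937.5 and 9864.7 at 8 h, whereas their fibroblast sums lie within the range of the other arrays. In 7 of the 14 fibroblast markers both still lay above wild type C and D at 8 h.

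Most tested leukocyte genes leaned lower in CHOP-/- cells without passing the test. Of 24 tested, 23 had a negative log2 difference at 8 h, with a median of −0.88, against 0.003 over all genes tested. The filter used the mean over all arrays, so dim members could enter through the high wild type arrays. Ncf1, for example, had 8 h means of 26.6 in CHOP-/- and 62.7 in wild type cells. The lean may therefore be partly set by the filter and is no test of the list. Only Cd53 passed the test, 4.17% of the list against 4.19% of all genes. Cd53, a tetraspanin gene of leukocytes, gave 36.0, 44.9, 9.4 and 13.2 in CHOP-/- arrays, against 190.2, 339.3, 71.8 and 70.2 in wild type arrays (log2 −2.33, SE 0.656, adjusted p = 0.0439). Without wild type A and B, 11 of the 24 genes were negative, the median was 0.05, and the difference of Cd53 was −1.50 (adjusted p = 0.378). With the letter as a block in the 8 h arrays alone, 13 of the 24 were called, all lower in CHOP-/- cells, where 5.32% of all genes were called lower. In these bulk samples fewer cells of a type and less RNA per cell cannot be told apart, and the part of leukocyte RNA in other results was not tested.

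The genotypes differed in 237 of 5662 genes at 8 h (4.19%), with 129 higher in CHOP-/- cells (2.28%) and 108 lower (1.91%). Of these, 91 differed at least 2-fold (1.61% of all genes tested). The arrays of the genotypes did not overlap in 228 of the 237, and did not overlap in 656 of all genes tested (11.6%). Genes at an unadjusted p under 0.05 numbered 953. Arrays with the same letter deviated together at 8 h, and with the letter as a block the count was 304 over all arrays (5.37%; 2.86% higher and 2.51% lower) and 655 over the 8 h arrays alone (11.6%). Of the 237 genes, 218 and 234 were called in those fits.

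The calls did not all outlast the loss of arrays. Without wild type A and B, 99 genes were called (1.75%), 55 higher (0.971%) and 44 lower (0.777%), and 87 of the 237 were among them. All 237 kept their sign, and the median ratio of the remaining difference to the full one was 0.99. The remaining arrays had helped to choose these genes, and in 228 of them the genotypes did not overlap. The kept sign is therefore no separate test of the calls. Without wild type C and D instead, 126 genes were called, including 109 of the 237. The difference moved by over 1.5 times without A and B in 7 called genes, which, named after their values were seen, were Spsb1, Smad7, Vamp5, Hbegf, Strap, Cd53 and Ccnd2.

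**Figure D2:**
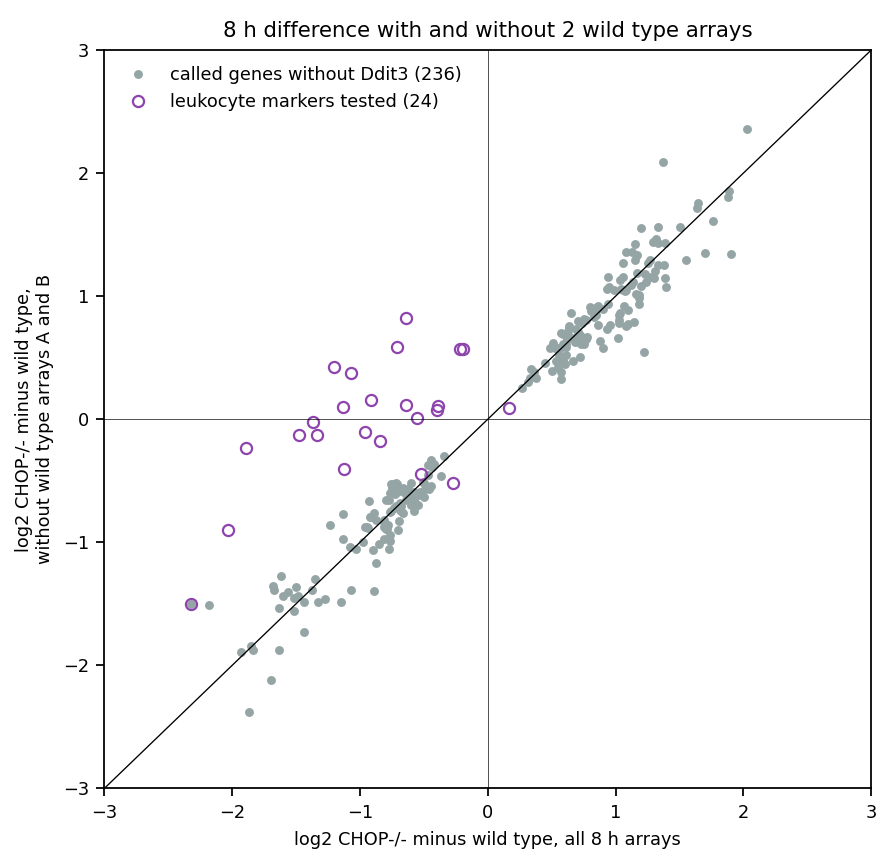
The log2 difference between CHOP-/- and wild type cells at 8 h with all arrays (horizontal axis) and without wild type arrays A and B (vertical axis), for 236 called genes without Ddit3 (grey dots) and 24 tested leukocyte markers (open circles). Called genes, which the remaining arrays had helped to choose, follow the diagonal, whereas most leukocyte markers move from a negative difference to near 0.

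Chaperones of the ER, the main products of the ATF6 and IRE1 arms, gave no call between the genotypes. None of 23 tested chaperone and folding genes was called by limma, against 4.19% of all genes. An unadjusted p under 0.05 was found for 1 of the 23, against 16.8% of all genes. With the letter as a block in the 8 h arrays alone that gene, the disulfide isomerase gene Pdia5 (log2 0.47), was called higher, with an adjusted p of 0.0106 against 0.201 without the block. The list's median log2 difference was −0.02, with a range of −0.30 to 0.47. Hspa5, which encodes the chaperone BiP, gave 6201.4, 7332.6, 5979.9 and 6323.7 in CHOP-/- arrays A to D, against 6224.2, 7016.6, 5878.8 and 6999.6 in wild type arrays A to D. The arrays of the genotypes overlapped throughout, and the 95% interval of the log2 difference was −0.20 to 0.22. The interval was −0.41 to 0.37 for Hsp90b1, which encodes the chaperone GRP94, and −0.31 to 0.60 for Dnajb9, which encodes an ER J-protein.

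Other induced genes of the response also passed no test at 8 h. Herpud1, a gene of ER-associated degradation, gave 4610.8 to 5930.7 in CHOP-/- arrays and 3976.0 to 5532.2 in wild type arrays (log2 0.15, 95% interval −0.07 to 0.37). Xbp1, the transcription factor gene spliced by IRE1, gave 1684.5 to 2080.0 in CHOP-/- arrays and 1283.0 to 1931.5 in wild type arrays (log2 0.24, 95% interval −0.03 to 0.51). Atf4 gave 3888.7 to 5071.4 in CHOP-/- arrays and 3506.1 to 4448.6 in wild type arrays (log2 0.18, 95% interval −0.02 to 0.38). None of these was called, and the arrays of the genotypes overlapped for each. Atf3, a stress factor downstream of ATF4, had a wide interval of −0.77 to 1.47. Asns, the asparagine synthetase gene induced by ATF4, had an interval of −0.02 to 0.36 at 8 h, although it was called higher in CHOP-/- cells untreated (log2 0.50) and at 4 h (0.35).

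Several genes downstream of ATF4 and CHOP were lower in CHOP-/- cells, though the PERK and ATF4 list did not move as one. Of 26 tested PERK and ATF4 genes, 4 were called lower, Ddit3 among them, and 1 was called higher (19.2% in all, against 4.19% of all genes tested), while 17 had a positive difference and the median was 0.13. Ddit3 is the targeted gene, so its call was fixed by the genotype, and it is counted among the lower genes in every fit given here. The counts were 1 higher and 2 lower, Ddit3 included, without wild type A and B. With the letter as a block in the 8 h arrays alone they were 3 higher and 6 lower, where 6.25% and 5.32% of all genes were. Ppp1r15a encodes GADD34, the subunit that directs a phosphatase to eIF2α and so lets translation resume. Its signal was 635.0, 718.8, 561.7 and 584.0 in CHOP-/- arrays A to D, against 1232.3, 1373.3, 1237.6 and 1098.8 in wild type arrays A to D. The CHOP-/- arrays all lay below the lowest wild type array, at a log2 difference of −0.96 (SE 0.197, adjusted p = 0.00464). Without wild type A and B the difference was −0.87 with an adjusted p of 0.0758.

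Atf5 and Sqstm1 were the other called genes on the lower side. Atf5, a transcription factor gene of the PERK arm, gave 535.3, 744.7, 546.2 and 315.4 in CHOP-/- arrays, against 1126.0, 1398.1, 1296.4 and 798.5 in wild type arrays (log2 −1.14, SE 0.216, adjusted p = 0.00251). Array D was the lowest in both genotypes, and without wild type A and B the adjusted p was 0.0634. Atf5 was already called lower in untreated cells (−0.88), and again at 4 h (−1.04). Sqstm1, which encodes the autophagy receptor p62, gave 2449.5, 2363.3, 1871.6 and 2018.0 in CHOP-/- arrays, against 3929.8, 3921.3, 3020.9 and 3937.4 in wild type arrays (log2 −0.77, SE 0.108, adjusted p = 0.00011). Its call remained without wild type A and B (−0.66, adjusted p = 0.00904). Sqstm1 is also a target of NRF2, and it was the 1 called gene among 23 tested NRF2 antioxidant genes (4.35%, against 4.19% of all genes). Of the 23, 20 had a negative difference.

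Ero1a encodes an oxidase that recharges protein disulfide isomerase in the ER and is a reported CHOP target. Its signal was 803.3, 833.1, 991.2 and 861.8 in CHOP-/- arrays, against 1346.7, 1401.6, 1500.8 and 1756.7 in wild type arrays (log2 −0.79, SE 0.146, adjusted p = 0.00194). The other probe set of Ero1a, fitted with every probe set and no filter, was also called lower (−0.98, adjusted p = 0.0336). Ero1b, the second oxidase gene, gave 320.1 to 446.3 in CHOP-/- arrays and 324.9 to 501.7 in wild type arrays, with an interval of −0.76 to 0.71. The paralogues thus differed in call, though the difference between them was not tested.

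**Figure D3:**
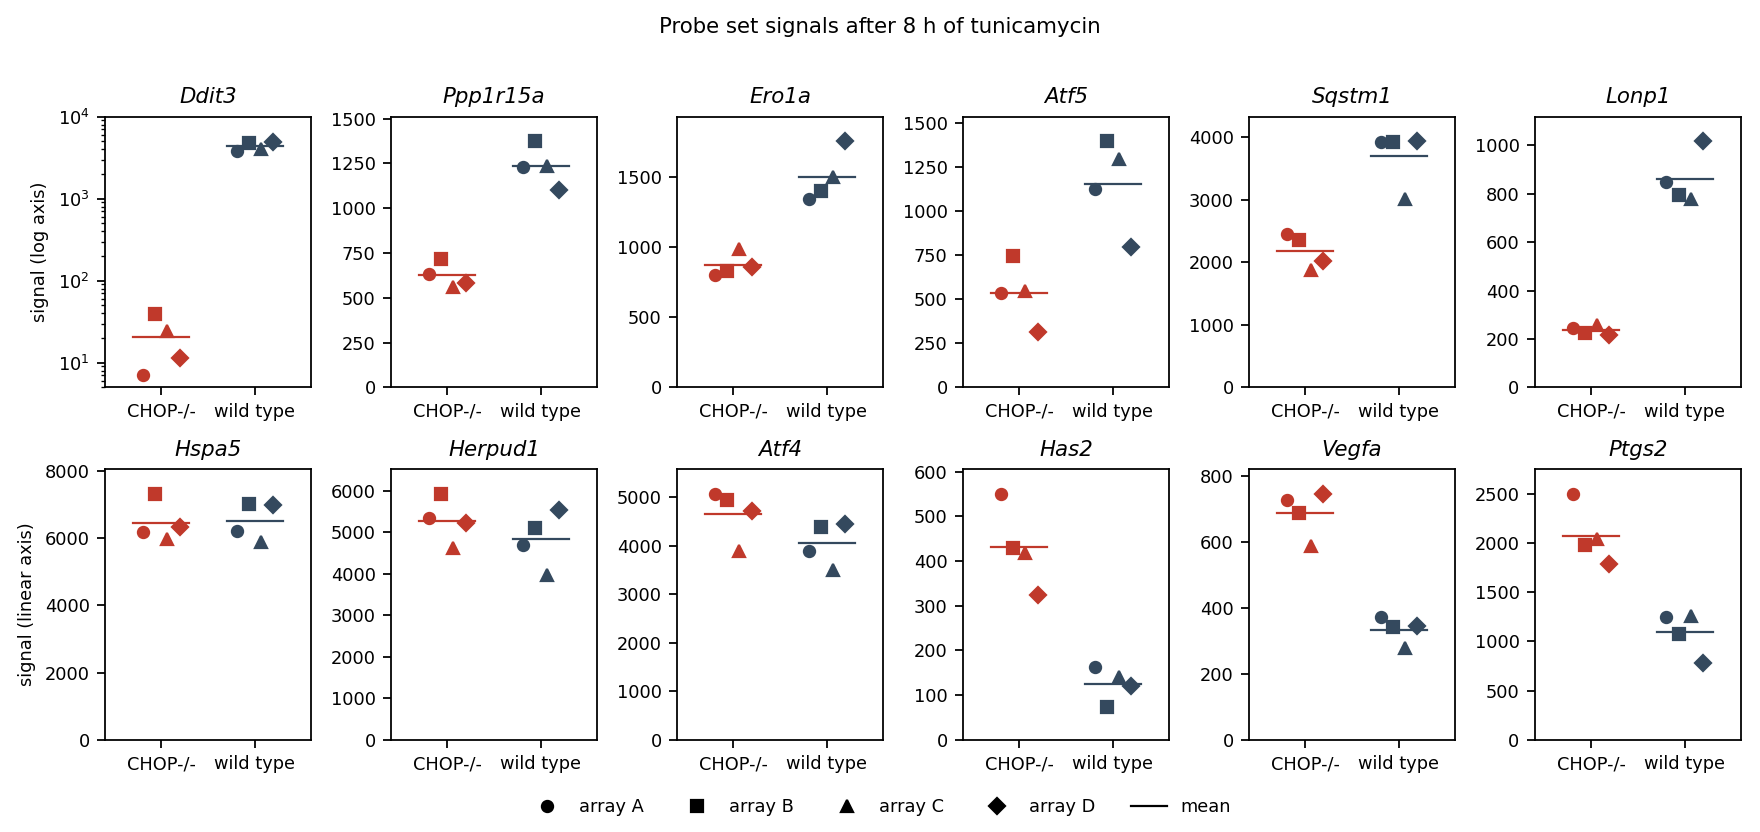
Signals of 12 genes on the 8 arrays at 8 h, with CHOP-/- left of wild type, a symbol for each letter and the mean as a line (Ddit3 on a log axis, the others on linear axes from 0). Ddit3, Ppp1r15a, Ero1a, Atf5, Sqstm1 and Lonp1 lie lower in CHOP-/- cells without overlap, Hspa5, Herpud1 and Atf4 overlap, and Has2, Vegfa and Ptgs2 lie higher.

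Other genes reported to depend on CHOP gave mixed results. Of 9 tested genes on that list, 3 were called lower (Ppp1r15a, Ero1a and Atf5), where 1.91% of all genes were, and none higher. The list was compiled from background knowledge with earlier results of these data known, so its calls are not an independent test. Ppp1r15a and Atf5 also belong to the PERK and ATF4 list. Trib3, which encodes a pseudokinase downstream of ATF4 and CHOP, gave 828.4, 652.7, 1020.5 and 815.2 in CHOP-/- arrays, against 1341.0, 1557.4, 1422.4 and 1861.4 in wild type arrays. Its arrays did not overlap, yet the difference of −0.91 (SE 0.265) missed the call, with an adjusted p of 0.0545. With the letter as a block in the 8 h arrays alone it was called (adjusted p = 0.00383). Nupr1, a stress gene that encodes a small chromatin protein, gave 2201.4 to 3398.1 in CHOP-/- arrays and 2199.9 to 4138.4 in wild type arrays (95% interval −0.47 to 0.54). Bcl2l11, which encodes the death protein BIM, gave 212.1 to 329.5 in CHOP-/- arrays and 211.9 to 323.4 in wild type arrays (95% interval −0.42 to 0.25).

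Car6 encodes a carbonic anhydrase reported to be induced through CHOP. It lay under the filter because it was dim on most of the 24 arrays, and so was not tested in the fit. Its signal was 3.3, 2.1, 2.2 and 3.5 in CHOP-/- arrays, against 114.3, 83.9, 113.4 and 147.6 in wild type arrays. All 4 CHOP-/- arrays lay under the filter's signal, which puts the CHOP-/- signal at least 3.45-fold lower. The exact two-sided permutation p was 0.0286, the smallest possible, and the fit without the filter gave an adjusted p of 2.83e-08.

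In ER-associated degradation, 2 of 17 tested genes were called, both lower in CHOP-/- cells (11.8%, against 1.91% of all genes called lower), and 1 without wild type A and B. Sel1l encodes the scaffold of a ubiquitin ligase in the ER membrane. It gave 775.1, 611.2, 608.4 and 753.7 in CHOP-/- arrays, against 1100.5, 1100.6, 908.2 and 1094.0 in wild type arrays (log2 −0.60, SE 0.139, adjusted p = 0.0124). Without wild type A and B its adjusted p was 0.15, and without CHOP-/- B or CHOP-/- C it was 0.0511 each. A second probe set of Sel1l, with means of 727.1 in CHOP-/- arrays and 812.2 in wild type arrays, was not called (−0.17, adjusted p = 0.893). Vcp encodes the ATPase that draws proteins out of the ER membrane. It gave 2535.2, 2806.0, 2346.9 and 2468.8 in CHOP-/- arrays, against 3411.0, 3933.5, 3465.9 and 4432.4 in wild type arrays (log2 −0.58, SE 0.107, adjusted p = 0.00194). Its probe sets disagreed, since a dim one, with means of 30.6 in CHOP-/- arrays and 7.7 in wild type arrays, was higher in CHOP-/- cells (1.48, adjusted p = 0.0012).

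Glycosylation gave 3 calls, and vesicle transport and charging of tRNA 1 each. Of 28 tested N-glycosylation genes, Gnpnat1 and Slc35a1 were called lower and Gmppb higher (10.7%, against 4.19% of all genes), and without wild type A and B 1 was called in each direction. Gmppb makes GDP-mannose and gave 525.0 to 916.1 in CHOP-/- arrays, against 362.4 to 457.4 in wild type arrays (0.81, SE 0.144, adjusted p = 0.00126). It was also called higher untreated (0.59) and at 4 h (0.83). Gnpnat1, an enzyme of UDP-N-acetylglucosamine synthesis, gave 991.0 to 1231.1 in CHOP-/- arrays, against 1467.5 to 1797.3 in wild type arrays (−0.58, adjusted p = 0.0242), and its call ended without wild type A and B (adjusted p = 0.0733) and without any 1 of 5 single arrays (0.055 to 0.094). Slc35a1 carries CMP-sialic acid into the Golgi and gave 138.3 to 187.3 in CHOP-/- arrays, against 214.7 to 258.0 in wild type arrays (−0.57, adjusted p = 0.00742). Arcn1, a subunit of the COPI coat, was the 1 called gene among 46 of translocation and vesicle transport, 2.17% of them (−0.69, adjusted p = 0.000321), and it was called lower at all 3 times.

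Among 20 tested aminoacyl-tRNA synthetases only Wars was called (−0.46, adjusted p = 0.0401), 5.0% of them against 4.19% of all genes. That call ended without wild type A and B (adjusted p = 0.268) and without 7 of the 8 single arrays (0.0554 to 0.146). Slc7a3, a transporter of cationic amino acids, was higher in CHOP-/- cells. It gave 662.8, 696.4, 924.8 and 748.5 in CHOP-/- arrays, against 416.7, 235.3, 311.3 and 289.2 in wild type arrays (1.27, SE 0.196, adjusted p = 0.000258). The same gene was called higher untreated (1.33) and at 4 h (1.55).

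Lonp1 and Chchd10, genes of mitochondrial proteins, were among the largest falls. Lonp1 encodes the mitochondrial protease LON. Its signal was 246.4, 222.6, 257.7 and 217.0 in CHOP-/- arrays, against 847.1, 796.3, 780.0 and 1017.0 in wild type arrays (log2 −1.84, SE 0.17, adjusted p = 2.89e-07). The gap between the genotypes was wider than the spread within either, and the call remained without wild type A and B (−1.88, adjusted p = 4.08e-05). Lonp1 was called lower at all 3 times, by −1.08 untreated and −1.31 at 4 h. Chchd10 encodes a small protein of the space between the mitochondrial membranes. Its signal was 151.2, 100.6, 81.1 and 82.8 in CHOP-/- arrays, against 767.7, 775.2, 333.4 and 273.2 in wild type arrays (−2.18, SE 0.43, adjusted p = 0.00354). Wild type A and B were the high arrays here too, and without them the difference was −1.51 with an adjusted p of 0.123. By limma none of 59 tested respiratory chain genes was called, with 1 at an unadjusted p under 0.05, against 4.19% and 16.8% of all genes.

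Several genes of secreted and signalling proteins were among the other large falls. Ptx3, a secreted pentraxin that binds the hyaluronan matrix, gave 137.9, 104.9, 233.9 and 173.3 in CHOP-/- arrays, against 423.0, 403.3, 826.6 and 849.7 in wild type arrays (−1.87, SE 0.362, adjusted p = 0.00298). Ets2, a transcription factor gene, gave 191.4 to 324.8 in CHOP-/- arrays, against 544.8 to 1199.6 in wild type arrays (−1.62, adjusted p = 0.000518). The calls of Ptx3 and Ets2 remained without wild type A and B, at −2.38 and −1.27. Fgf7, a growth factor for epithelium, gave 73.0 to 120.2 in CHOP-/- arrays, against 203.5 to 491.8 in wild type arrays (−1.67, adjusted p = 0.00762). Adm, which encodes the peptide adrenomedullin, gave 21.7 to 32 in CHOP-/- arrays, against 60.5 to 142.7 in wild type arrays (−1.68, adjusted p = 0.00113). Adm was also called lower untreated (−1.62) and at 4 h (−1.11). The calls of Fgf7 and Adm ended without wild type A and B (adjusted p = 0.123 and 0.0525).

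Of 29 tested chemokine, cytokine and NF-kappaB genes, 3 were called lower and 1 higher (13.8%, against 4.19% of all genes), although the median difference was 0.21 and 17 were positive. The balance shifted with the fit, at 1 higher and 1 lower without wild type A and B. With the letter as a block in the 8 h arrays alone it was 6 higher and 4 lower, where 6.25% and 5.32% of all genes were. Vcam1, an adhesion molecule gene, gave 457.2, 512.5, 564.1 and 454.6 in CHOP-/- arrays, against 960.1, 1077.0, 971.5 and 784.7 in wild type arrays (−0.92, SE 0.124, adjusted p = 7.74e-05). Its other probe sets were not called, with differences of −0.21 and −0.83. The neutrophil chemokine genes Cxcl1 and Cxcl5 were lower by −1.56 (adjusted p = 0.0103) and −1.64 (adjusted p = 0.0296). Cxcl5 gave 371.6 to 1084.5 in CHOP-/- arrays, against 1426.6 to 2528.6 in wild type arrays. The calls of Cxcl1 and Cxcl5 ended without wild type A and B (adjusted p = 0.119 and 0.17), and that of Cxcl5 without any 1 of 6 single arrays (0.0512 to 0.109). Ptgs2, which encodes the inducible prostaglandin synthase COX-2, was the higher gene of this list. It gave 2505.5, 1984.6, 2038.3 and 1785.0 in CHOP-/- arrays, against 1248.9, 1078.8, 1263.0 and 778.3 in wild type arrays (0.95, SE 0.192, adjusted p = 0.0043).

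Genes of the extracellular matrix were called more often higher than lower in CHOP-/- cells. Of 62 tested, 9 were called higher and 2 lower (17.7% in all, against 4.19% of all genes), with a median difference of 0.14. Over all genes 2.28% were called higher and 1.91% lower. Has2, which encodes a hyaluronan synthase, gave 551.0, 429.1, 419.0 and 324.6 in CHOP-/- arrays, against 162.5, 73.0, 139.8 and 121.0 in wild type arrays (1.76, SE 0.252, adjusted p = 0.000126). The lowest CHOP-/- array lay well above the highest wild type array. Col15a1, a basement membrane collagen gene, gave 154.2 to 218.3 in CHOP-/- arrays, against 39.3 to 47.7 in wild type arrays (1.88, adjusted p = 0.000146). Bmp1, a protease that trims procollagen, gave 760.2 to 856.4 in CHOP-/- arrays, against 218.0 to 412.7 in wild type arrays (1.30, adjusted p = 0.000772). Bmp1 was also called higher untreated (0.92) and at 4 h (1.01).

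The other matrix genes called higher were Eln and Ccn2 and, named after their values were seen to complete the count, Mfap4, Mmp14, Lox and Col8a1. Eln, which encodes elastin, gave 278.1 to 482.2 in CHOP-/- arrays, against 36.6 to 149.5 in wild type arrays (1.90, SE 0.48, adjusted p = 0.024), and its call ended without wild type A and B (adjusted p = 0.25) and without CHOP-/- A, CHOP-/- C, wild type A or wild type B alone (0.0512 to 0.0929). Lox, which crosslinks collagen and elastin, differed by 0.27. The calls of Mfap4, Mmp14, Lox and Col8a1 also ended without wild type A and B (adjusted p = 0.0878, 0.0503, 0.181 and 0.153). Mfap4 was also called higher untreated (0.99) and at 4 h (1.34). The 2 lower matrix genes were Ptx3 and Igfbp4, which binds insulin-like growth factors (−1.5, adjusted p = 0.00771, and 0.101 without wild type A and B). Without wild type A and B, 4 matrix genes were called higher and 1 lower. With the letter as a block in the 8 h arrays alone, 17 were called higher and 5 lower, where 6.25% and 5.32% of all genes were.

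**Figure D4:**
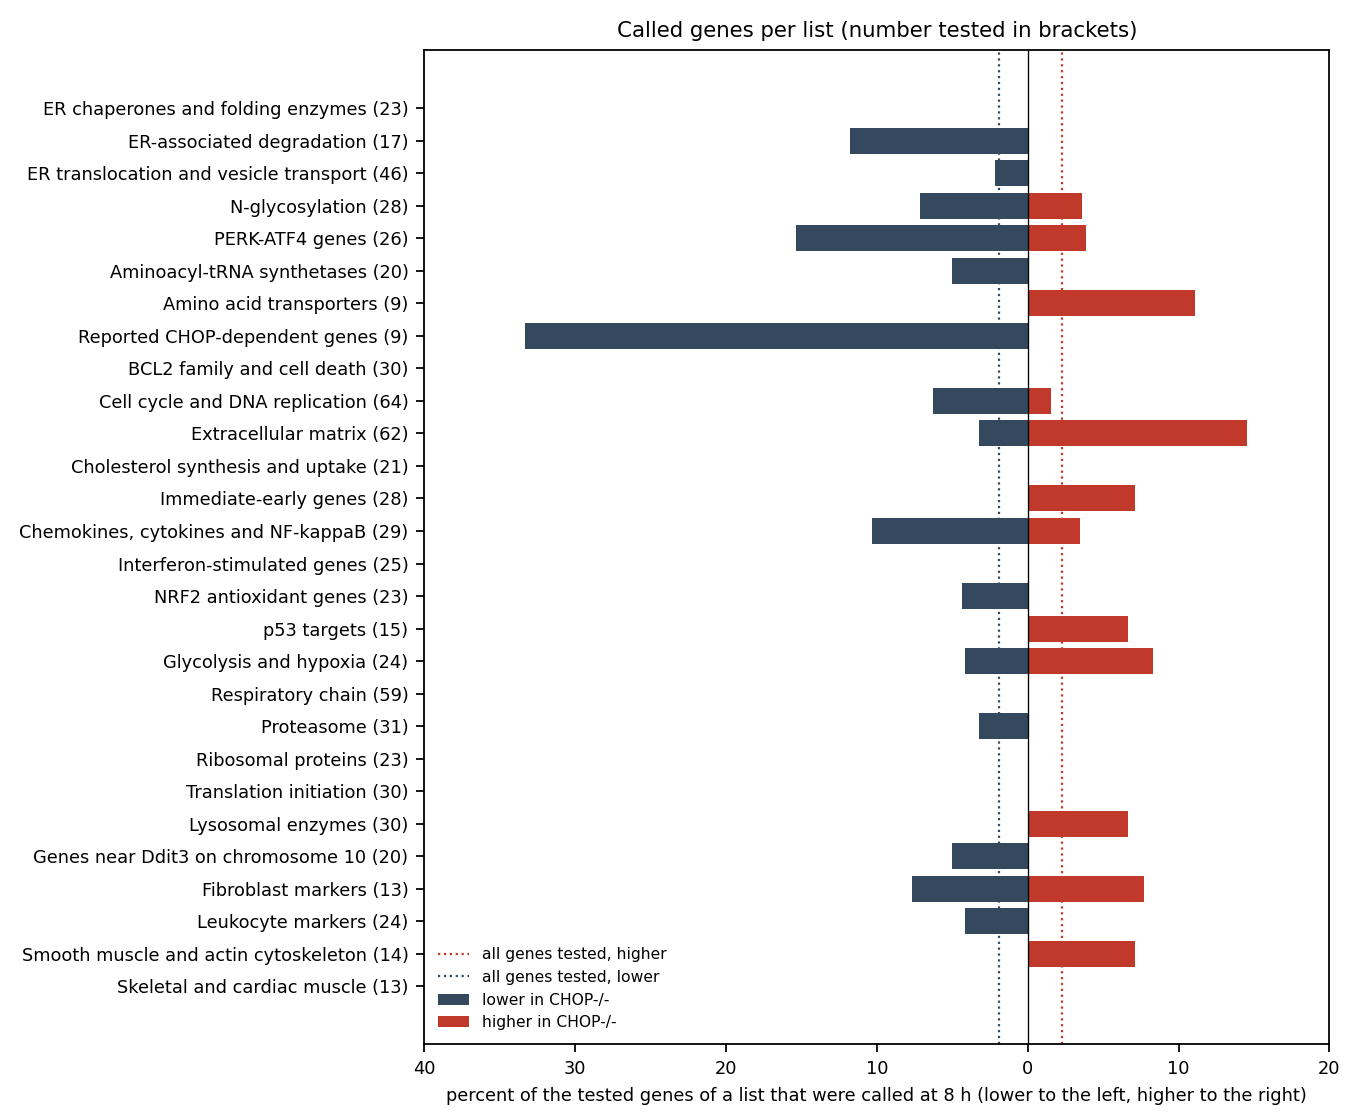
Percent of the tested genes of each list that were called at 8 h, lower in CHOP-/- cells to the left and higher to the right, for lists with at least 9 tested genes (number tested in brackets). Dotted lines give the shares over all genes tested, 2.28% higher and 1.91% lower. Extracellular matrix genes reach furthest among the larger lists on the higher side, and the reported CHOP-dependent and PERK genes on the lower side. The bars of the PERK genes and of the genes near Ddit3 count Ddit3 itself, the targeted gene.

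Vegfa, Edn1 and Flt1 were called higher in CHOP-/- cells. Vegfa, the vascular endothelial growth factor gene and an ATF4 target, was the 1 PERK list gene called higher. It gave 727.9, 686.3, 588.8 and 746.6 in CHOP-/- arrays, against 371.0, 342.0, 279.0 and 343.8 in wild type arrays (1.03, SE 0.208, adjusted p = 0.00429). Edn1, which encodes the peptide endothelin, gave 85.2 to 200.4 in CHOP-/- arrays, against 26.0 to 35.9 in wild type arrays (1.89, SE 0.542, adjusted p = 0.0484). The Edn1 call ended without any 1 of the 8 arrays (adjusted p = 0.0605 to 0.138) and without wild type A and B (0.192). Flt1, a receptor for VEGF and a marker of endothelium, gave 182.7 to 262.8 in CHOP-/- arrays, against 75.3 to 133.1 in wild type arrays (1.16, adjusted p = 0.00177). The defining endothelial marker Pecam1 lay under the filter's signal on all 8 arrays.

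Klf4, Klf6, Gadd45g and Bhlhe40 were also called higher. Klf4 and Klf6, zinc finger transcription factor genes, differed by 0.83 (adjusted p = 0.0312) and 0.77 (adjusted p = 0.0314). They were the 2 called of 28 tested immediate-early genes (7.14%, against 2.28% of all genes called higher). With the letter as a block in the 8 h arrays alone 8 were called higher and 2 lower, where 6.25% and 5.32% of all genes were. Gadd45g, a growth arrest gene, gave 2406.7, 2086.8, 3013.2 and 2567.6 in CHOP-/- arrays, against 1074.2, 975.0, 1407.5 and 1506.9 in wild type arrays (1.02, SE 0.259, adjusted p = 0.0242). The calls of Klf4, Klf6 and Gadd45g ended without wild type A and B (adjusted p = 0.123, 0.122 and 0.241). Each also ended without any 1 of 5 single arrays, wild type A among them (adjusted p = 0.104, 0.0668 and 0.073). Bhlhe40, a transcriptional repressor of the circadian system, gave 566.4 to 770.6 in CHOP-/- arrays, against 156.6 to 333.5 in wild type arrays (1.55, adjusted p = 0.00502), and its adjusted p was 0.097 without wild type A and B.

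Tubb3, Tpp1 and Glb1 were called higher, while the medians of their lists lay near or below 0 with all arrays. Tubb3, a tubulin gene used as a neuronal marker, gave 2006.6, 1911.5, 2155.2 and 1870.8 in CHOP-/- arrays, against 1007.0, 1153.9, 1323.6 and 1276.5 in wild type arrays (0.73, SE 0.0995, adjusted p = 7.74e-05). Its second probe set differed the same way (1.59, adjusted p = 7.27e-05). Of 7 tested neural markers, Tubb3 and Ncam1 (0.72, adjusted p = 0.0239) were called higher, where 2.28% of all genes were. A negative difference was found for 4 of the 7, and the median was −0.22. Without wild type A and B, 1 of the 7 was called higher and the median was 0.36. Of 30 tested lysosomal genes, Tpp1, a peptidase, and Glb1, the lysosomal beta-galactosidase, were called higher, by 0.86 (adjusted p = 0.00657) and 0.64 (adjusted p = 0.0107), the Glb1 call ending without wild type D (0.052). These were 6.67% of the list, against 2.28% of all genes called higher, and its median was 0.04, with 14 negative and 16 positive differences. Among dim genes, Rab3d, a vesicle GTPase, Npy1r, a neuropeptide Y receptor, and G0s2, an inhibitor of fat breakdown, lay under the filter's signal on all wild type arrays. They were at least 1.74-fold, 2.03-fold and 2.04-fold higher in CHOP-/- cells. Rab3d was also called higher untreated (1.43) and at 4 h (1.94).

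Cell cycle genes leaned lower in CHOP-/- cells. Of 64 tested cell cycle and replication genes, 53 had a negative difference, and the median was −0.37. Only 4 were called lower, where 1.91% of all genes were, and 1 was called higher. An unadjusted p under 0.05 was found for 30 of the 64, 27 lower and 3 higher, against 16.8% of all genes in either direction. Aurka, a mitotic kinase, gave 73.4 to 101.1 in CHOP-/- arrays, against 142.5 to 150.0 in wild type arrays (−0.69, adjusted p = 0.0195). Bub1 and Mad2l1, which guard chromosome attachment, had differences of −0.97 (adjusted p = 0.0227) and −0.67 (adjusted p = 0.0435). Ccnd2, a G1 cyclin, was the fourth (−0.89, adjusted p = 0.0406).

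These cell cycle calls were sensitive to single arrays. The adjusted p of Aurka was 0.0621 without CHOP-/- B and 0.0684 without CHOP-/- D, and Bub1, Mad2l1 and Ccnd2 lost their calls without any 1 of 4, 7 and 5 of the 8 arrays (adjusted p = 0.0525 to 0.165). The adjusted p without wild type A and B was 0.0795 for Aurka, 0.113 for Bub1 and 0.105 for Mad2l1. The count was then 1 lower and 1 higher. With the letter as a block in the 8 h arrays alone it was 16 lower and 3 higher, where 5.32% and 6.25% of all genes were. Kif20a, a mitotic kinesin, was called higher (1.23, adjusted p = 0.00074), but its other probe set had a difference of −0.51 (adjusted p = 0.411). Kif20a was also called higher untreated (1.56) and at 4 h (1.09). At 4 h the same list had 9 genes called lower (against 1.29% of all genes) and a median of −0.36, whereas in untreated cells limma called none lower (0.371% of all genes) and the median was −0.06.

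Lists tied to death, translation, cholesterol and defence gave no call in the fit of all arrays without the block. By limma none of 30 tested BCL2 family and cell death genes, 23 ribosomal protein genes, 30 translation initiation genes, 21 cholesterol genes or 25 interferon-stimulated genes was called. Over all genes 4.19% were called. At an unadjusted p under 0.05 these lists had 4, 2, 3, 5 and 6 genes, against 16.8% of all genes. Aifm1 and Bid, both involved in mitochondrial death, came closest in the first list, with differences of −0.49 (adjusted p = 0.0563) and −0.67 (adjusted p = 0.0579). Without wild type A and B, 1 interferon-stimulated gene was called higher, where 0.971% of all genes were, and the other lists had no call. Calls in some of these lists also appeared without wild type B or CHOP-/- D alone. With the letter as a block in the 8 h arrays alone all 5 lists had calls, where 11.6% of all genes did, at 1 higher and 2 lower for cell death, 2 lower for ribosomal proteins, 2 lower for translation initiation, 5 higher for cholesterol, and 4 higher and 1 lower for interferon-stimulated genes. Aifm1 and Bid were called lower there (adjusted p = 0.025 and 0.00707). Among the C/EBP partners of CHOP, Cebpb gave 1188.2 to 2086.5 in CHOP-/- arrays and 933.3 to 1601.3 in wild type arrays (95% interval −0.10 to 0.86). Cebpg had an interval of −0.53 to −0.03 with an adjusted p of 0.224.

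The differences at 8 h mostly ran the same way at the other times. Of the 237 called genes, 217 (91.6%) had the same sign in untreated cells and 226 (95.4%) at 4 h, against 66.5% and 66.4% of all genes tested. Their median absolute log2 difference was 0.38 untreated, 0.51 at 4 h and 0.84 at 8 h, the time that chose them, against 0.15, 0.18 and 0.17 over all genes tested. The genotype difference was called in 56 genes untreated (0.989%) and 138 at 4 h (2.44%), and 37 genes were called at all 3 times. Called at 8 h and at neither other time were 152. The number of genes past a threshold does not show that a gene differs between times, and the change of the difference was therefore tested itself.

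That test left few genes. Between 8 h and untreated cells the genotype difference changed in 2 of 5662 genes (0.0353%), with 262 at an unadjusted p under 0.05 (4.63%). Ddit3 was the first, with differences of −7.48 at 8 h and −4.05 untreated (change −3.43, SE 0.495, adjusted p = 0.00256). Vcam1 was the second, with −0.92 at 8 h and 0.05 untreated (change −0.96, SE 0.175, adjusted p = 0.0386). The Vcam1 call ended with the letter as a block over all arrays (adjusted p = 0.145) or over the arrays of both times (0.134), without wild type A and B at 8 h (0.556), and in 19 of 31 other settings in all. Between 8 h and 4 h limma called none, with 247 at an unadjusted p under 0.05 (4.36%).

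**Figure D5:**
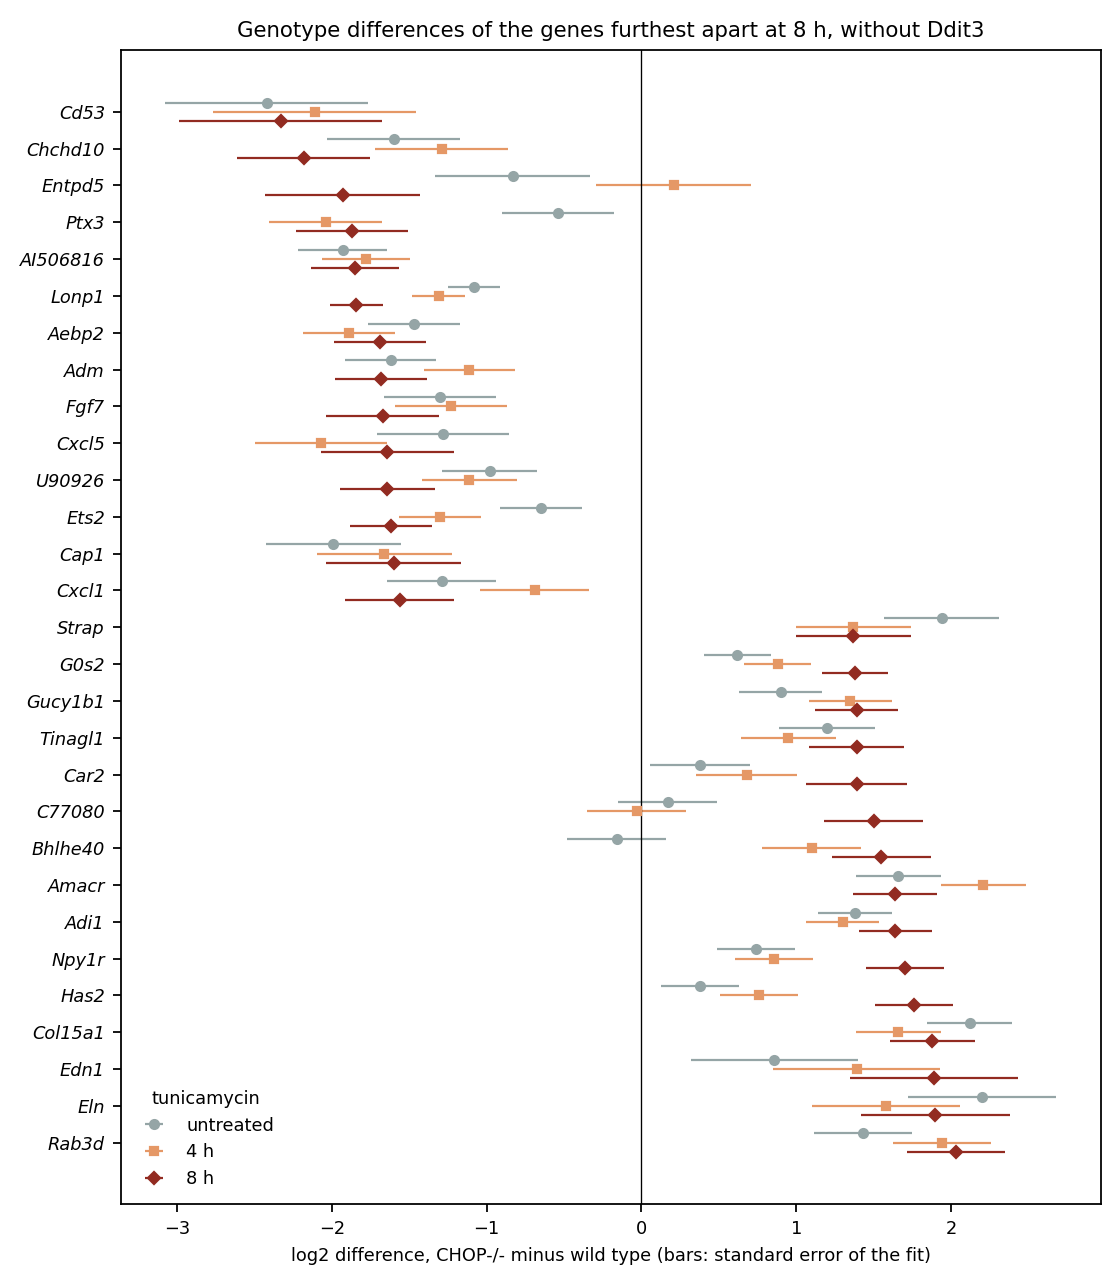
The log2 difference between CHOP-/- and wild type cells (points, with the standard error of the fit) in untreated cells, at 4 h and at 8 h, for the 14 lower and 15 higher called genes with the largest differences at 8 h and arrays that did not overlap. Most genes lie on the same side at all 3 times, while Bhlhe40 and C77080 lie near 0 in untreated cells and Entpd5 lies on the other side at 4 h.

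Several genes were set apart by genotype from the start. Col15a1 differed by 2.12 untreated, 1.66 at 4 h and 1.88 at 8 h. AI506816, named in the array annotation by this symbol alone, differed by −1.93, −1.78 and −1.85 at the same times. Amacr, a racemase of branched fatty acids, differed by 1.66, 2.21 and 1.64, and Aebp2, a cofactor of a polycomb complex, by −1.47, −1.89 and −1.69. The wild type means of Amacr, 19.3, 14.2 and 18.3, lay under the filter's signal, so the sizes of its differences are uncertain. Of the genes that lie near Ddit3 on chromosome 10, 2 of 40 tested neighbours were called at 8 h, a share near the 4.19% of all genes. They were Xpot (−0.50) and Esyt1 (0.63), named after their values were seen. Mars1, the nearest tested gene on one side, was called lower in untreated cells alone (−0.86) and differed by −0.02 at 8 h.

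Promoters were searched for 3 letter patterns of the stress response in windows of 250 bases before to 50 after each start, from RefSeq on GRCm38.p6, on both strands. They were the CHOP and ATF4 element TTGCATCA, the XBP1 element TGACGTGG, and the ER stress element, CCAAT and CCACG with 9 bases between. A window was found for 92 of 108 genes called lower, 96 of 129 called higher and 4598 of 5662 tested. TTGCATCA stood in 1.09% of the lower genes, 2.08% of the higher genes and 0.739% of all tested. TGACGTGG stood in 1.09%, 3.12% and 1.22%, and the ER stress element in 0%, 0% and 0.239%. The shares of the called genes rest on 7 genes in all, too few to read a difference from. Chchd10 (chr10:75932880-75933179, plus strand) and Gadd45g (chr13:51846425-51846724, plus strand) are shown because both hold TTGCATCA, in capitals on either strand, while one was lower and the other higher in CHOP-/- cells. Vcp (chr4:43000458-43000757, minus strand) is the lower gene with TGACGTGG, in capitals.
Chchd10: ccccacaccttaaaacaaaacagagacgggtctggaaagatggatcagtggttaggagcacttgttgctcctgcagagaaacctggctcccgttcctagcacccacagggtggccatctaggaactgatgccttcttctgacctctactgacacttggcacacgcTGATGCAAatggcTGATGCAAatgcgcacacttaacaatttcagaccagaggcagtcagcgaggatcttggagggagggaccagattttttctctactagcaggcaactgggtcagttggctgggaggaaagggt
Gadd45g: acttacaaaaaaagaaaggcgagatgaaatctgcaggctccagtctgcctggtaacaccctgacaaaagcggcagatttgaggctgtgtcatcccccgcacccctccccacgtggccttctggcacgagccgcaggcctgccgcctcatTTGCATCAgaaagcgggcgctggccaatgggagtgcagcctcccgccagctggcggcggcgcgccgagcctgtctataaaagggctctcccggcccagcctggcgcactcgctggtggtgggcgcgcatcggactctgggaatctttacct
Vcp: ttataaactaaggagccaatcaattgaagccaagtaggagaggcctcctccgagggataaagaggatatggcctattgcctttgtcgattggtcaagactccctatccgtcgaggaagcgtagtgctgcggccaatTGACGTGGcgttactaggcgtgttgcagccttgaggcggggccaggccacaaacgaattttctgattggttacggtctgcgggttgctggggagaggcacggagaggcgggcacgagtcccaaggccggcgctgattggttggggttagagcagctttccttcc
A match is a description of the letters and not of a bound site. The window of Ppp1r15a held none of these letters.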

How the data were processed

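The 24 arrays were those of CHOP-/- and wild type cells untreated, at 4 h and at 8 h of tunicamycin, 4 per group. The deposited intensity values are linear probe set signals that the authors had scaled, judging from the values, to a common trimmed mean, and the software behind them is not named in the sources used. They were taken to log2(signal + 5.7), with 5.7 the 20th percentile of all signals, and quantile normalized. Each gene was read from its brightest probe set. Genes with a mean log2 value above 5.1 entered a limma fit (version 3.58.1, R 4.3.3) of the 6 group means over all 24 arrays with an intensity trend, on 18 residual degrees of freedom. A call is a Benjamini-Hochberg adjusted p under 0.05 over 5662 genes. The median standard error of the 8 h difference was 0.189, and the number of arrays limits the precision.

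The fitting code was tested on simulated data. At 8 h the residuals of same-letter arrays correlated by 0.357, 0.416, 0.546 and 0.289, so the letters were read as pairs there, a reading that comes from the data and not from the labels. A fit with the letter as a block was run beside the fit without it. Alternatives covered the normalization, pseudocount, filter, probe set choice, variance model, block and left-out arrays. The always-named genes, the 15 largest non-overlapping called differences of each sign and up to 5 called genes per list were eligible to be named, with those called at all times or near Ddit3. The comparison, the genes and the lists were chosen with earlier results of these data known.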

Additional observations from a re-analysis of the deposited data

Results flagged for a closer look

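Single arrays stood away from the other 3 of their group at 8 h in 11 of 252 groups of 4 arrays examined, by Dixon's test at its 95% critical value, where chance gives about 1 in 20. In CHOP-/- cells the lone values were 35.5 for Entpd5 in array A (high), 451.8 for Pdgfrb in array B (high), 73.0 for Fgf7 in array C (low), 191.4 for Ets2 in array D (low) and 78.0 for U90926 in array D (low). In wild type cells they were 18.6 for Myog in array A (low), 11.8 for Col9a1 in array C (low), 908.2 for Sel1l in array C (low), 111.7 for Irgm1 in array D (low), 54.9 for Ms4a1 in array D (high) and 830.4 for Ncam1 in array D (high).

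The genotype difference at 8 h departed from that in untreated cells for Ddit3 (change −3.43) and Vcam1 (change −0.96), by the interaction contrast of the limma fit. For Ddit3, the targeted gene, the change only restates its rise in wild type cells.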

How the results depend on the processing

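All 237 calls at 8 h kept their sign without wild type A and B, but the remaining arrays had helped to choose them. The number of calls moved with the arrays and the variance model. It was 99 without wild type A and B, 126 without wild type C and D (an alternative chosen after seeing the data), 29 without A and B of both genotypes, 545 with array weights and 154 with arrays centred on their median. Leaving out single arrays gave 146 to 205. The untreated count of 56 became 88 with array weights, 23 with only the groups compared and 34 to 52 without single arrays. The 4 h count of 138 became 56 with only the groups compared and 78 to 143 without single arrays. The 2 genes whose difference changed between 8 h and untreated became 5 with array weights, 1 to 2 without single arrays, and 1 without wild type A and B, without A and B of both genotypes, with median centring, without the trend or with only the groups compared.

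With the letter as a replicate block, 655 genes were called when only the 8 h arrays were fitted and 304 with all arrays, against 237 without the block. The block gave 7 untreated calls in the 8 untreated arrays, whose letters did not correlate, and 1 gene for the change from untreated in either blocked fit. Of 66 called genes named by the rule, none changed sign in the 22 to 23 settings run on each, 9 held the call in every other setting and 40 without any single 8 h array. Dim probe sets and 4 arrays per group limit what could be called.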

Other observations

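Genes of TGF-beta signalling, picked here after their values were seen and so with no test of the group, were among those called higher in CHOP-/- cells at 8 h. Tgfb3, which encodes a TGF-beta ligand, gave 1080.4 to 1673.1 in CHOP-/- arrays, against 511.6 to 665.1 in wild type arrays (log2 1.26, SE 0.165). Tgfb3 was also called higher untreated (0.75) and at 4 h (1.05). Ltbp1, which encodes a protein that holds latent TGF-beta in the matrix, gave 601.5 to 1135.7 in CHOP-/- arrays, against 286.4 to 513.1 in wild type arrays (1.12, SE 0.19). Cdkn2b, a cell cycle inhibitor gene that TGF-beta is known to raise, gave 579.4 to 766.5 in CHOP-/- arrays, against 226.0 to 294.8 in wild type arrays (1.31, SE 0.185). These 3 calls remained without wild type A and B. Tgfb2 and Smad7 were also called, by 1.03 and 0.58, but their adjusted p was 0.268 and 0.394 without wild type A and B.

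Shmt1, an enzyme of one-carbon metabolism also picked after its value was seen, gave 31.3 to 45.9 in CHOP-/- arrays, against 72.9 to 123.4 in wild type arrays (−1.15, SE 0.233). Its call remained without wild type A and B (−1.49).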
